A study of Mus musculus with 2 samples.

Results

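The common gamma chain family of cytokine receptors was described in CD45+ cells of mouse visceral adipose tissue (VAT) through 7 genes, out of the 26981 genes listed in the deposited files. Il2rg encodes the common gamma chain, Il2rb the beta chain shared by the IL-2 and IL-15 receptors, Il7r the alpha chain of the IL-7 receptor, Il4ra the alpha chain of the IL-4 receptor, Il21r the private chain of the IL-21 receptor, Il15ra the alpha chain of the IL-15 receptor, and Il15 the cytokine IL-15. They were chosen by name, and all 7 were found in both libraries. Wildtype C57BL/6 mice aged 15 weeks and kept free of specific pathogens received normal water (NW) or drinking water with the antibiotics ampicillin, streptomycin, colistin and vancomycin (ABX). CD45 marks leukocytes. CD45+ cells were enriched from digested VAT with magnetic beads, stained with oligonucleotide-tagged antibodies and profiled on the BD Rhapsody single-cell platform. There was 1 library per condition, and the number of mice behind each is not given in the sources used here.

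After the filters, 12474 NW and 12724 ABX cells with at least 500 gene UMIs, 200 genes and at most 25% mitochondrial UMIs were kept. A UMI (unique molecular identifier) marks 1 captured molecule. The median cell had 5092 UMIs in NW and 3845.5 in ABX, so NW was the deeper library, and 196 cell barcodes occurred among the cells of both. Cells were clustered without the 7 genes, the other genes of their pathway and the CD25 antibody. Of 74 clusters, 52 were named by marker genes into 18 classes, which are called "like" a cell type throughout, and 13.6% of NW and 14.9% of ABX cells stayed unnamed. Of 120 markers, 92 were highest in the class they mark, and the list for activated CD4+ T cells, behind the CD4+ T-like class, was not among those checked. The fit was weak for monocyte-like cells, with 3 of 8 markers highest there and a main cluster led by Gpnmb, Atp6v0d2 and Lpl, for cDC2-like cells (3 of 6), for CD8+ T-like cells (3 of 6), for resting CD4+ T-like cells (3 of 7) and for NKT/ILC1-like cells, where 2 of 6 NKT and 1 of 6 ILC1 markers were highest. Fibroblast-like and resting CD4+ T-like cells had under 50 cells in NW and are given for ABX alone, which leaves 16 classes with values in both conditions.

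Receptors of this family have no kinase of their own. A cytokine brings its private chain together with the common gamma chain, the attached kinases JAK1 and JAK3 phosphorylate the chains, and STAT proteins carry the signal to the nucleus. IL-7 keeps naive T cells and innate lymphoid cells alive, IL-15 does so for NK cells and memory CD8+ T cells, IL-2 sustains Treg cells, IL-4 drives type 2 responses, and IL-21 acts on B cells and activated T cells. IL-15 is commonly held by the producing cell on its own alpha chain and presented to neighbours that carry the beta and gamma chains. In adipose tissue, type 2 innate lymphoid cells (ILC2), Treg cells and γδ T cells are long-lived residents.

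On GRCm38 with GENCODE annotation, Il2rb (chr15:78479256-78495271), Il7r (chr15:9505788-9530176), Il2rg (chrX:101264378-101268255) and Il15 (chr8:82331632-82403222) lie on the minus strand, and Il15ra (chr2:11705290-11734317) on the plus strand. Il4ra (chr7:125552120-125579474) and Il21r (chr7:125603429-125633570) are neighbours on the plus strand, with 23954 bases between them. The windows around the start sites of Il7r and Il2rg are shown because their levels were the most alike across classes of any pair of members. They are RefSeq sequences of GRCm38.p6, from 250 bases before to 50 after the RefSeq start, read 5′ to 3′ on the gene's strand. The RefSeq start of Il7r lies downstream of the GENCODE start, so its window is wholly inside the GENCODE gene. Positions below are relative to the RefSeq start. Capitals mark matches to the STAT motif TTCNNNGAA, the RUNX motif TGTGGT or the ETS motif AGGAAG, each searched on both strands, and no matches overlap.
Il7r, chr15:9529827-9530126, minus strand: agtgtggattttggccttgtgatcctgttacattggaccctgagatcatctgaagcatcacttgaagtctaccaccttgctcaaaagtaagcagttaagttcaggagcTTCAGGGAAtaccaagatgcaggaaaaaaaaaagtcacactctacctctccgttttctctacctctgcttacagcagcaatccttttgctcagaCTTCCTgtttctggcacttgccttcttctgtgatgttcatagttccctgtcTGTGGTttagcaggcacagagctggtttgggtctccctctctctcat
Il2rg, chrX:101268206-101268505, minus strand: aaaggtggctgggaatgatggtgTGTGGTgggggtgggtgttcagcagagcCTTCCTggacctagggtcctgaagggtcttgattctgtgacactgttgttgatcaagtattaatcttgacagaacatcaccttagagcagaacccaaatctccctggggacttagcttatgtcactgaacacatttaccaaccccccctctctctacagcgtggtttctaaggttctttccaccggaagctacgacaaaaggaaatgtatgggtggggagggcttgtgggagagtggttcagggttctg
The Il7r window held a STAT match from -142 relative to the start, an ETS match from -48 and a RUNX match from 3. The Il2rg window held a RUNX match from -227 and an ETS match from -199, and no STAT match. Of all 32851 RefSeq windows of this length, 8.3% held the STAT, 16.8% the RUNX and 35.4% the ETS motif. The interferon-stimulated response element (ISRE), held by 3.44% of windows, was in none of the 6 windows of the 5 members with an entry. A match of letters is a description and no sign of binding.

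Levels are CPM, the UMIs of a gene per 1000000 UMIs summed over all cells of a class in a library, with exact 95% Poisson intervals. Counting error is all that these intervals hold. Since each condition was a single library, replicates are lacking, no test or p-value is given, and a difference between conditions is a difference between these libraries. CPM from 3′-end counts is not scaled to gene length, so levels are compared between classes and not between genes.

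Il2rg, the chain that every receptor of the family uses, was found in all lymphoid classes and was highest in ILC2-like and γδ T-like cells. ILC2-like cells had 825 CPM in NW (796 to 855) and 838 in ABX (811 to 865). γδ T-like cells (gdT-like in the plots) had 846 CPM in NW (786 to 909.6) and 662 in ABX (606 to 721). Both classes lay above all other classes in both libraries, and which of them was higher differed between the libraries. NKT/ILC1-like cells, which carry NK receptors, had 541 and 531 CPM (NW and ABX, the order used from here on), Treg-like cells 591 and 471, CD4+ T-like cells 503 and 517, CD8+ T-like cells 426 and 458 and NK-like cells 457 and 417. These 5 classes followed each other without a gap beyond counting error. B cell-like cells had 333 and 387 CPM. Among myeloid classes, mature DC-like cells, the migratory state of dendritic cells, had 312 and 288 CPM and cDC2-like cells 269 and 292, whereas macrophage-like cells had 74.4 and 75.7 and cDC1-like cells, the lowest class with values in both libraries, 35.5 and 35.5.

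Il2rb, which with the gamma chain makes up the signalling receptor for IL-15, set NK-like and NKT/ILC1-like cells apart. NKT/ILC1-like cells had 2036 CPM in NW (1936 to 2140.4) and 2248 in ABX (2166 to 2331). NK-like cells had 1784 CPM in NW (1713 to 1857) and 1772 in ABX (1706 to 1840.0). NK-like cells lay below NKT/ILC1-like cells beyond counting error in both libraries, and CD8+ T-like cells, at 777 and 839 CPM, lay below both. CD4+ T-like cells had 506 and 664 CPM, Treg-like cells 474 and 624 and γδ T-like cells 536 and 528, and these neighbours in the order did not separate. ILC2-like cells were lower, at 209.7 and 241 CPM, and resting CD4+ T-like cells had 162 in ABX. The other classes lay between 9.82 CPM, which was 1 UMI in neutrophil-like cells, and 95.5 CPM. Thinned shares, here and below, leave out cells with fewer than 1000 UMIs. When each remaining cell was thinned to 1000 UMIs, 81.5% and 84.5% of NKT/ILC1-like cells kept an Il2rb UMI, against 1.28% and 2.32% of macrophage-like cells, a class taken to lack the gene. Unthinned, the shares were 96.3% and 95.2% against 5.51% and 6.98%, at median depths of 3242.5 and 3128.5 and of 5762 and 4136 UMIs.

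Il7r was highest in γδ T-like cells, which had 2922 CPM in NW (2809.6 to 3038) and 3252 in ABX (3128 to 3379.8). ILC2-like cells had 2081 CPM in NW (2034 to 2128) and 2626 in ABX (2579 to 2674), and Treg-like cells 2178 CPM in NW (2105 to 2252) and 1624 in ABX (1531 to 1722). Both lay below γδ T-like cells in both libraries. ILC2-like cells lay above Treg-like cells in ABX, whereas in NW their intervals overlapped. CD4+ T-like cells had 1675 and 1379 CPM, and resting CD4+ T-like cells 1476 in ABX. CD8+ T-like cells had 1075 and 754 CPM and NKT/ILC1-like cells 993 and 706, whereas NK-like cells had 257 and 229.8, the lowest Il7r of the T, NK and ILC classes beside the second highest Il2rb. Mature DC-like cells, with 555 and 524 CPM, lay above the NK-like and all other myeloid classes. Monocyte-like cells had 131 and 178 CPM, cDC2-like cells 71.8 and 85.7 and cDC1-like cells 19.5 and 29.4. At 1000 UMIs a cell, 85.4% and 85.6% of γδ T-like and 80.3% and 85.7% of ILC2-like cells kept an Il7r UMI, against 2.26% and 2.85% of macrophage-like cells. Unthinned, the shares were 92.5% and 94.3% of ILC2-like cells, at median depths of 4009 and 3440.5 UMIs, and 8.34% and 7.32% of macrophage-like cells.

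**Figure D1:**
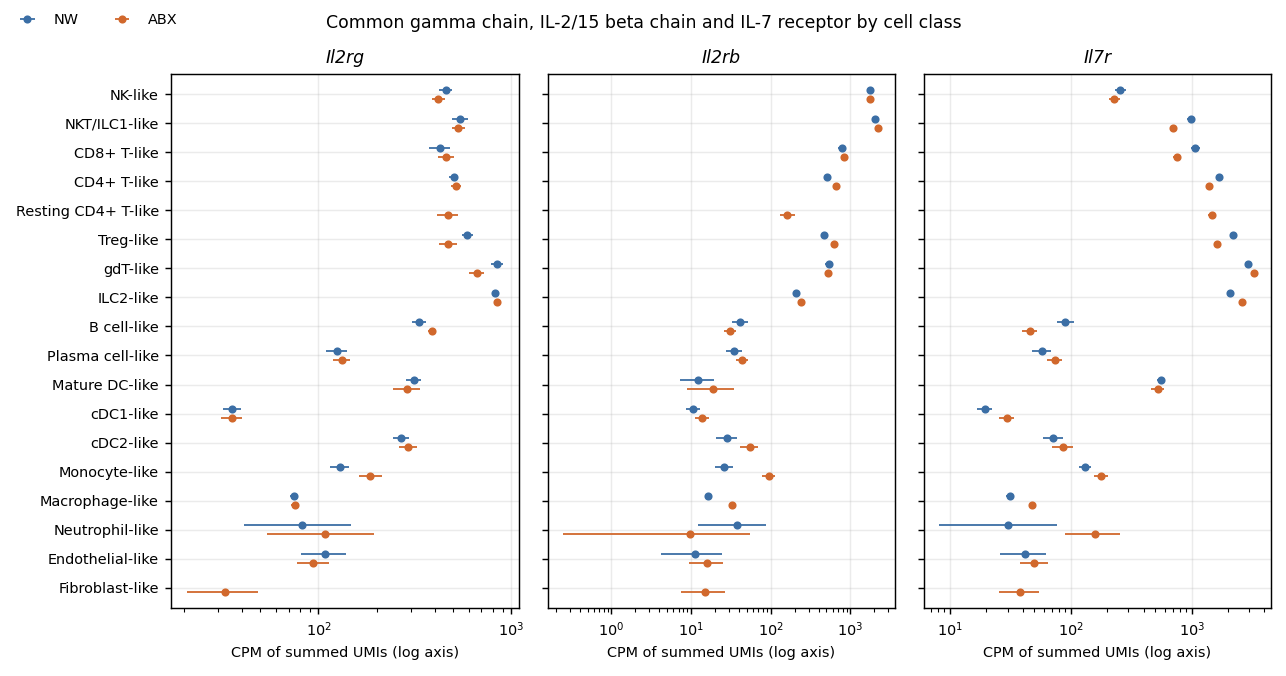
Levels of Il2rg, Il2rb and Il7r in 18 classes, as CPM of summed UMIs on a log axis, in NW (blue) and ABX (orange), with bars for the exact 95% Poisson interval. NK-like and NKT/ILC1-like cells sit between 1772 and 2248 CPM for Il2rb, and γδ T-like and ILC2-like cells between 2081 and 3252 CPM for Il7r.

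Il4ra, the chain that the IL-4 and IL-13 receptors share, was spread over most classes. Endothelial-like cells had 104 CPM in NW (78.2 to 135) and 107 in ABX (88.9 to 128). NKT/ILC1-like cells had 90.6 and 87.9 CPM, B cell-like cells 86.5 and 85.3, ILC2-like cells 67.3 and 75.3 and macrophage-like cells 63.2 and 61.5. From endothelial-like cells down to NK-like cells, no class lay below its neighbour in the order beyond counting error. At the low end, cDC1-like cells had 20.5 and 22.2 CPM and plasma cell-like cells 10.02 and 14.3, with intervals below those of macrophage-like cells.

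Il21r was highest in mature DC-like cells, which had 111 CPM in NW (94.6 to 129) and 105 in ABX (79.2 to 136). NKT/ILC1-like cells had 69.6 and 94.9 CPM, CD8+ T-like cells 57.3 and 78.0, B cell-like cells 51.0 and 67.0, CD4+ T-like cells 48.0 and 58.3 and Treg-like cells 37.0 and 78.0. Mature DC-like cells lay above NKT/ILC1-like cells beyond counting error in NW and not in ABX, and the other neighbours among these classes did not separate. Macrophage-like cells had 23.4 and 21.5 CPM and ILC2-like cells 14.4 and 12.9. Thinned to 1000 UMIs, 11.2% and 8.88% of mature DC-like and 6.13% and 6.76% of B cell-like cells kept an Il21r UMI, against 2.21% and 2.0% of macrophage-like cells, while the 1.07% and 1.07% of ILC2-like cells lay below that level and are read as background. Unthinned, the shares were 47.7% and 48.6% in mature DC-like cells, at median depths of 8052.5 and 7485 UMIs, and 10.9% and 7.37% in macrophage-like cells. Macrophage-like cells are an imperfect background for this gene, since a cluster of them described further on held more of it. That limit also holds for Il7r, at 98.7 and 192 CPM in its highest macrophage-like cluster against medians over clusters of 30.6 and 36.5. For Il2rb the highest cluster of each library had 31.1 and 89.4 CPM, against medians of 16.1 and 26.8.

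Il15ra was highest by far in mature DC-like cells, which had 166 CPM in NW (146 to 189) and 193 in ABX (157 to 234). The next class was CD8+ T-like cells in NW, at 18.5 CPM, and neutrophil-like cells in ABX, at 29.4 CPM from 3 UMIs, with intervals below these. At 1000 UMIs a cell, 16.6% and 16.2% of mature DC-like cells kept an Il15ra UMI, against 1.20% and 1.64% of plasma cell-like cells, taken as the class that should lack it. Most other classes lay near that background, such as 1.26% and 1.77% of macrophage-like and 1.09% and 1.45% of cDC1-like cells. Unthinned, the shares were 56.8% and 52.9% in mature DC-like and 10.8% and 12.4% in plasma cell-like cells, whose median depth was 13624 and 11444 UMIs.

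The cytokine gene Il15 was highest in neutrophil-like cells, with 113 CPM in NW (63.1 to 186) and 88.3 in ABX (40.4 to 168), from 15 and 9 UMIs in 60 and 55 cells. Mature DC-like cells had 77.1 CPM in NW (63.6 to 92.7) and 52.4 in ABX (34.8 to 75.8), and the 2 classes did not separate. cDC1-like cells followed with 20.8 and 20.6 CPM, and macrophage-like cells had 16.8 and 19.5. NK-like cells had 18.8 and 16.3 CPM, and the other lymphoid classes at most 11.5. In thinned cells, 9.76% and 8.95% of neutrophil-like, 6.97% and 6.33% of mature DC-like and 2.26% and 2.19% of cDC1-like cells kept an Il15 UMI, against 0.938% and 0.909% of plasma cell-like cells. Unthinned, 15.0% and 14.5% of neutrophil-like cells, at median depths of 1839 and 1514 UMIs, and 12.0% and 9.24% of plasma cell-like cells had an Il15 UMI.

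**Figure D2:**
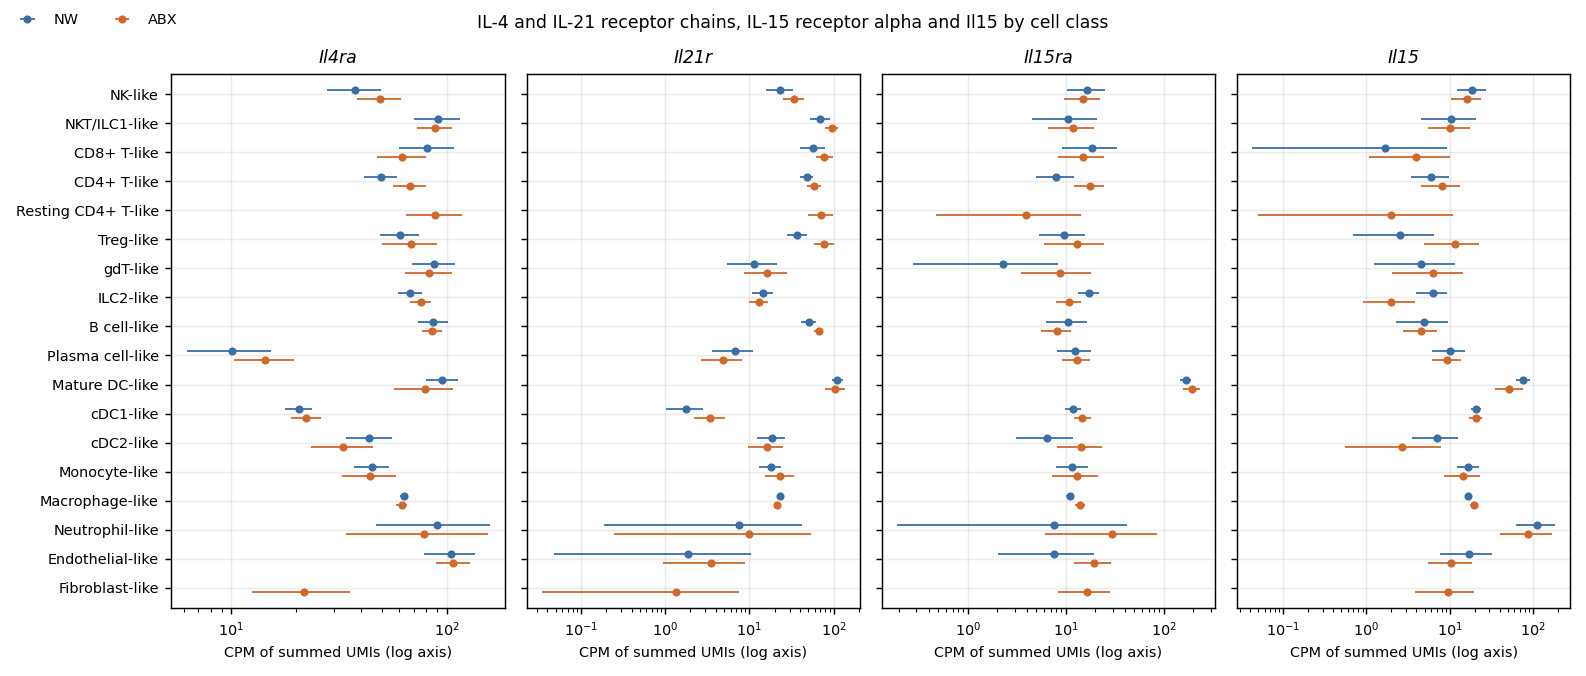
Levels of Il4ra, Il21r, Il15ra and Il15 in 18 classes, as CPM of summed UMIs on a log axis, in NW (blue) and ABX (orange), with bars for the exact 95% Poisson interval. Mature DC-like cells are the highest class for Il21r (111 and 105 CPM) and Il15ra (166 and 193 CPM), and neutrophil-like cells for Il15 (113 and 88.3 CPM).

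Across the 18 classes, Pearson's r of log2(CPM + 10) was 0.87 between Il2rg and Il7r, 0.76 between Il2rb and Il2rg and 0.74 between Il2rb and Il7r. It was 0.61 between Il15ra and Il15 and -0.42 between Il2rb and Il15, so the receptor chains of lymphocytes varied together and the cytokine apart from them. These are descriptions over 18 classes that share libraries and differ in depth. Among 10877 genes with at least 500 UMIs, the 3 most alike in pattern were Cst7, Ppm1j and Sh2d2a for Il2rb (r from 0.96 to 0.96), Arap2, Tmc8 and H2-K1 for Il2rg (0.91 to 0.92) and Socs1, Gbp8 and Abcg3 for Il7r (0.92 to 0.94). They were H2-M2, Apol7c and Tm4sf5 for Il15ra (0.95 to 0.95), Gabarap, Phyh and Ankrd33b for Il15 (0.86 to 0.90), Clec2i, D130040H23Rik and Pym1 for Il21r (0.82 to 0.86) and Cggbp1, Eapp and Myh9 for Il4ra (0.82 to 0.83).

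Chains of a receptor were also counted in the same cell. Il7r and Il2rg were found together in 87.0% and 84.0% of ILC2-like, 88.9% and 75.3% of γδ T-like and 78.8% and 61.1% of Treg-like cells. Thinned to 1000 UMIs a cell, the shares were 47.4% and 48.6%, 48.3% and 39.5% and 37.6% and 27.3%, so the lower values of γδ T-like and Treg-like cells in ABX were present at equal depth, whereas those of ILC2-like cells were close. In macrophage-like cells that pair was found in 3.67% and 3.06%, or 0.362% and 0.633% thinned. Il2rb and Il2rg were found together in 72.7% and 71.7% of NKT/ILC1-like and 69.7% and 71.6% of NK-like cells, or 33.03% and 33.7%, and 31.3% and 28.7%, thinned.

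Mature DC-like cells held Il21r with Il2rg in 40.3% and 37.1% of cells, Il4ra with Il2rg in 35.8% and 28.6%, and Il15 with Il15ra in 23.3% and 14.3%. At 1000 UMIs a cell the shares were 2.70% and 2.24%, 1.82% and 1.37%, and 1.51% and 0.509%, since each gene gave few UMIs per cell. In the deeper plasma cell-like cells, Il15 and Il15ra were found together in 1.27% and 1.20% without thinning.

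Over all cells, Il2rb went from 134 to 213 CPM between NW and ABX (ratio 1.59, 95% interval 1.55 to 1.63) and was the only member past 1.5-fold, a limit that 15.9% of 14505 genes passed in either direction. Il7r went from 353 to 456 CPM (1.29), Il2rg from 187 to 234 (1.25) and Il21r from 23.4 to 27.6 (1.18), while Il4ra (1.04), Il15ra (1.04) and Il15 (0.909) were nearer to 1. In such a sum, more cells of a class and more RNA of a gene per cell cannot be told apart. With the class shares of ABX set to those of NW, the log2 ratio was 0.33 in place of 0.67 for Il2rb, 0.04 in place of 0.32 for Il2rg and 0.12 in place of 0.37 for Il7r. NKT/ILC1-like cells held 15.4% in NW and 22.2% in ABX of the Il2rb UMIs, beside 1.01% and 2.10% of all UMIs. ILC2-like cells held 28.8% in NW and 42.7% in ABX of the Il7r UMIs. Macrophage-like cells held 51.7% and 37.4% of Il4ra, 45.1% and 27.1% of Il21r and 47.0% and 46.3% of Il15 UMIs, beside 45.1% and 34.8% of all UMIs.

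**Figure D3:**
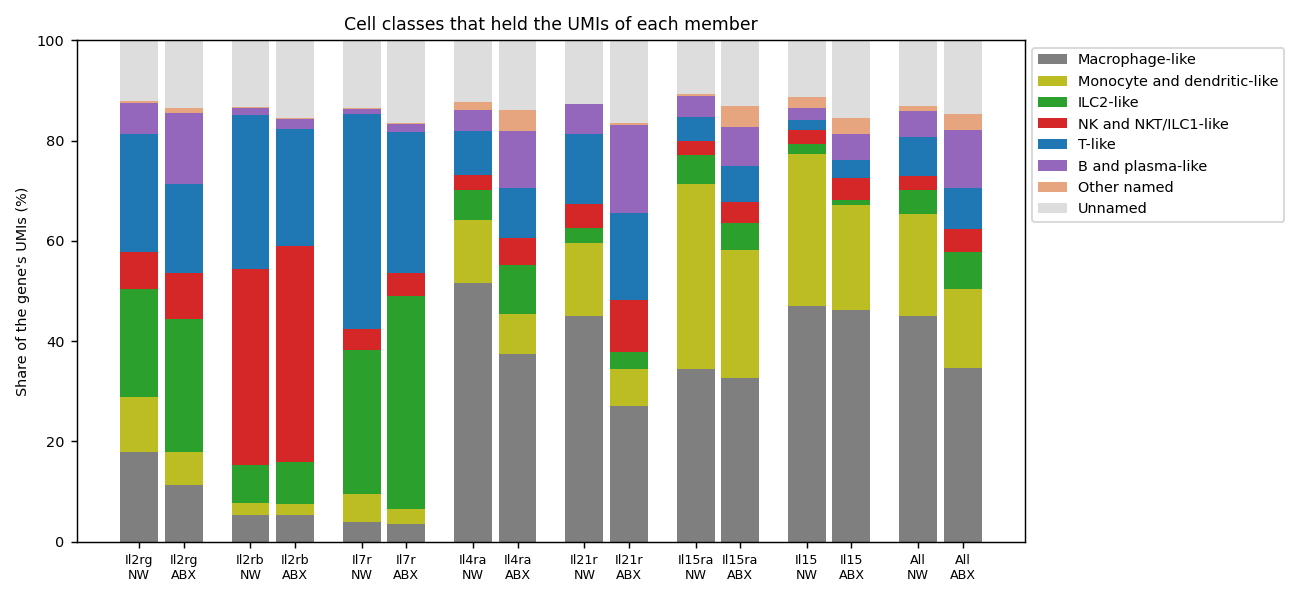
Share of each member's UMIs, in percent of all its UMIs in a library, held by groups of classes in NW and ABX, with the share of all UMIs beside them (All). ILC2-like cells hold 28.8% in NW and 42.7% in ABX of Il7r, and the macrophage-like share of Il21r goes from 45.1% to 27.1%.

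Within classes, 80 of 112 pairs of member and class held at least 50 UMIs over both libraries and were compared. Of these, 7 were at least 1.5-fold higher in ABX and 2 at least 1.5-fold lower, while over all genes 5.5% of 111878 pairs were higher and 5.3% lower. The count is near that background. The median log2 ratio was 0.10 over the 80 pairs, and over all genes it lay between -0.06 and 0.06 in each class. The 7 higher pairs were Il2rb in monocyte-like, macrophage-like and cDC2-like cells, Il7r in macrophage-like and cDC1-like cells, Il21r in Treg-like cells and Il15ra in CD4+ T-like cells. Macrophage-like cells were the class taken to lack Il2rb and Il7r, and cDC1-like cells had less Il7r than they did. The macrophage-like calls lie in the class chosen as background, so that background cannot judge them, and the cDC1-like call lies below it. No difference in expression is read from these calls. Il2rb was higher in ABX in 14 of 16 macrophage-like clusters and Il7r in 11 of 16. The 2 lower pairs were Il7r in B cell-like and Il15ra in ILC2-like cells. Markers of cell types other than a class's own were summed in 8 classes. Those of B cells were higher in ABX in 7 of 7 other classes (ratios 1.43 to 3.70), those of NK cells in 8 of 8 other classes (ratios 1.28 to 5.46) and those of CD8+ T cells in 7 of 8 other classes (ratios 0.962 to 1.88). The CD8+ T list holds Cd3e, Trac and Trbc2, which Treg-like and CD4+ T-like cells carry themselves. Its highest ratio, in monocyte-like cells, rested on these genes. There Cd8a went from 3.90 to 0.860 CPM and Cd8b1 from 0.779 to 0, with Gzmk at 0 in both libraries. The part of all these markers in the ratios of the members was not tested. The values given beside a result are mainly those that moved with it, and not all lists are shown.

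**Figure D4:**
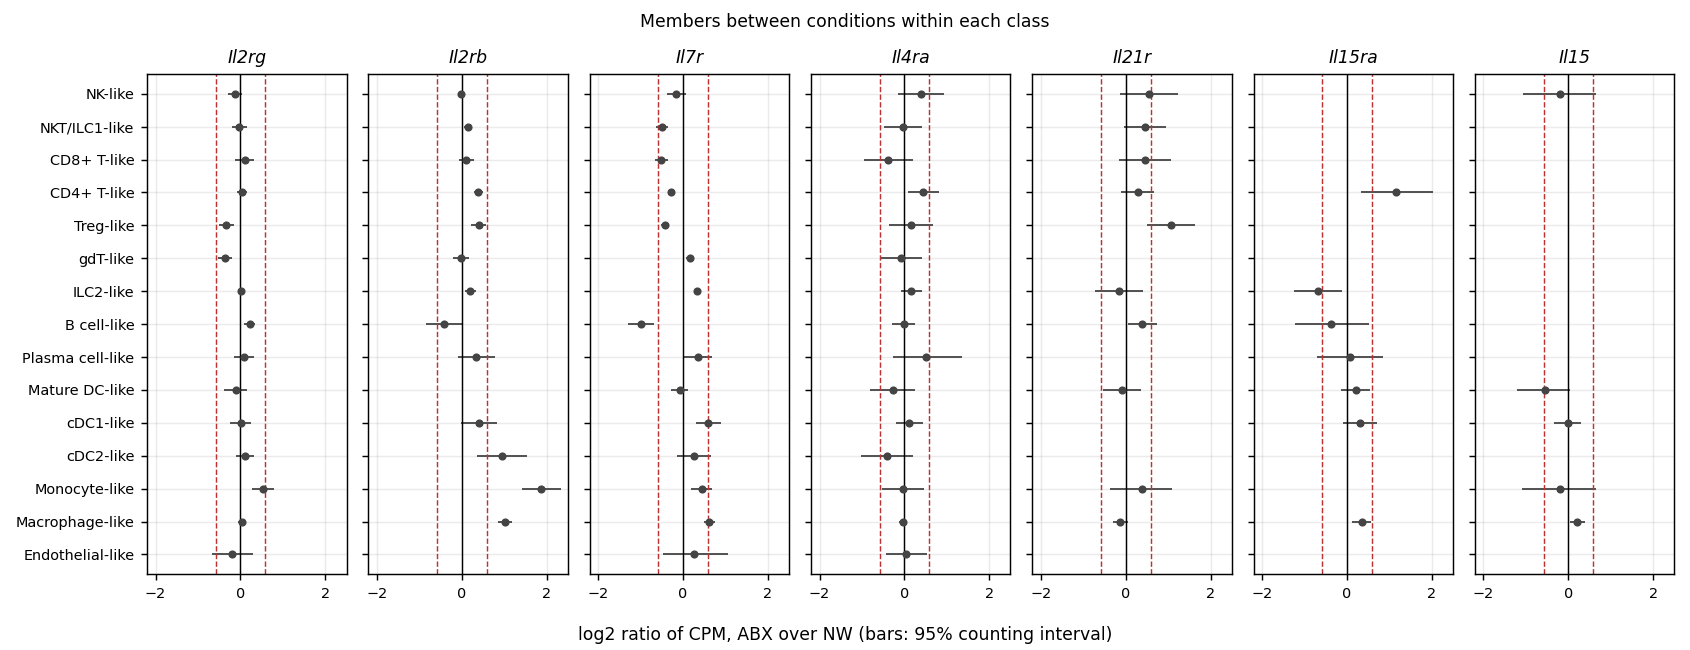
Log2 ratio of CPM, ABX over NW, for each member in classes where it had at least 50 UMIs over both libraries, with bars for the 95% counting interval and lines at 1.5-fold. Il2rb in monocyte-like cells (ratio 3.66) lies farthest to the higher side and Il7r in B cell-like cells (0.504) farthest to the lower side.

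In Treg-like cells, Il7r went from 2178 CPM (2105 to 2252) to 1624 (1531 to 1722), a ratio of 0.746 (0.697 to 0.798), and Il2rg from 591 to 471 CPM, a ratio of 0.796 (0.700 to 0.904). Il2rb differed the other way, from 474 to 624 CPM, a ratio of 1.31 (1.17 to 1.48). None of these reached 1.5-fold. Il21r went from 37.0 to 78.0 CPM, on 58 and 54 UMIs, a ratio of 2.11 (1.43 to 3.10), past the limit that 7.01% of genes passed upward in this class. Il7r was 2378 and 1882 CPM in the larger Treg-like cluster and 1423 and 1318 in the other, lower in ABX in both. Il21r was 36.3 and 47.8 CPM in the larger cluster and 39.6 and 114 in the other, so most of the difference lay in the latter. Beside these values, the summed level of 8 ILC2 markers, some of which tissue Treg cells share, went from 3636 to 1546 CPM in Treg-like cells and was higher in ABX for 0 of 8, with Il17rb and Hs3st1 at 0 in ABX. The sum of 6 B cell markers went from 77.9 to 215 CPM, with 4 of 6 higher and none at 0, and that of 8 NK markers from 39.6 to 99.6 CPM, with 5 of 8 higher and Klra4 at 0 in ABX. Their part in the results was not tested.

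Other T and NKT/ILC1 classes also had less Il7r in ABX, though none by 1.5-fold. CD8+ T-like cells went from 1075 to 754 CPM, a ratio of 0.702 (0.631 to 0.781), NKT/ILC1-like cells from 993 to 706, a ratio of 0.711 (0.645 to 0.785), and those called CD4+ T-like from 1675 to 1379, a ratio of 0.823 (0.784 to 0.864). Both CD8+ T-like clusters were lower in ABX, while the CD4+ T-like clusters had 1527 and 1223, and 1949 and 1917 CPM, the latter close between the libraries. NKT/ILC1-like clusters were not alike, with 758 and 658, 1132 and 445, and 1591 and 1666 CPM. NK-like cells had a ratio of 0.895 (0.770 to 1.04), a difference within counting error. In CD4+ T-like cells the summed ILC2 markers, some of which this class carries itself, went from 1851 to 1118 CPM, with 2 of 8 higher in ABX and none at 0. The largest was Il1rl1, at 751 and 421 CPM, which is among the leading genes of a CD4+ T-like cluster.

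ILC2-like cells had more Il7r in ABX, from 2081 to 2626 CPM, a ratio of 1.26 (1.23 to 1.30) on 7639 and 11821 UMIs. All 4 ILC2-like clusters were higher in ABX, with 2279.9 and 2635, 2262 and 2697, 1157 and 2308, and 1816 and 2919 CPM. γδ T-like cells went from 2922 to 3252 CPM, a ratio of 1.11 (1.05 to 1.18), while their Il2rg went from 846 to 662, a ratio of 0.782 (0.698 to 0.875). Il2rg in ILC2-like cells had a ratio of 1.01 (0.967 to 1.06).

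Il2rb differed little where it was highest, with ratios of 0.993 (0.940 to 1.05) in NK-like, 1.10 (1.04 to 1.17) in NKT/ILC1-like and 1.08 (0.963 to 1.21) in CD8+ T-like cells. In CD4+ T-like cells it went from 506 to 664 CPM, a ratio of 1.31 (1.21 to 1.42), beside NK markers that went from 102 to 163 CPM in this class, with 6 of 8 higher in ABX and none at 0, and B cell markers that went from 57.8 to 98.4 CPM, with 5 of 6 higher and Fcer2a at 0 in NW. The ratios past 1.5-fold came from myeloid classes where it was rare. Monocyte-like cells went from 26.1 to 95.5 CPM (3.66, 2.68 to 5.03), macrophage-like cells from 16.1 to 32.5 (2.02, 1.8 to 2.26) and cDC2-like cells from 28.2 to 54.5 (1.93, 1.29 to 2.91). In these classes 9.93%, 8.11% and 4.44% of all genes were called higher. The 2 monocyte-like clusters were not alike, with Il2rb higher in ABX in 1 and lower in the other. Predicted doublets were 3.15% and 3.11% of monocyte-like, 1.58% and 1.60% of macrophage-like and 2.12% and 1.97% of cDC2-like cells.

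A part of these Il2rb UMIs, which differed by class, sat in few cells. Cells with 5 or more Il2rb UMIs held 65.7% in NW and 81.1% in ABX of the UMIs of monocyte-like cells (6 and 8 cells), 36.8% in NW and 46.0% in ABX of those of macrophage-like cells (25 and 41 cells) and 47.7% in NW and 67.2% in ABX of those of cDC2-like cells (2 and 3 cells). In the remaining cells the levels were 9.29 and 19.1 CPM, 10.3 and 17.8 CPM, and 14.8 and 18.5 CPM, each still higher in ABX. The summed level of 8 NK markers went from 21.4 to 117 CPM in monocyte-like cells with 8 of 8 markers higher in ABX, from 22.9 to 33.1 CPM in macrophage-like cells with 5 of 8 higher, and from 67.9 to 108 CPM in cDC2-like cells with 7 of 8 higher, and none of the markers was at 0. B cell markers went from 189 to 269 CPM, 35.2 to 126 CPM and 66.7 to 180.4 CPM in these classes, with all 6 higher in each. Without the cells that had a UMI of an NK marker, the Il2rb ratio was 2.09 in monocyte-like and 1.75 in macrophage-like cells, and cDC2-like cells gave no value.

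Il7r in macrophage-like cells went from 31.2 to 47.8 CPM, a ratio of 1.53 (1.41 to 1.67), and in cDC1-like cells from 19.5 to 29.4, a ratio of 1.51 (1.23 to 1.86), where 2.63% of genes were called higher. Cells with 5 or more Il7r UMIs held 50.2% in NW and 65.9% in ABX of the UMIs of macrophage-like cells (46 and 62 cells) and 25.1% in NW and 52.8% in ABX of those of cDC1-like cells (6 and 12 cells). In the remaining cells the levels were 15.8 and 16.6 CPM and 14.7 and 14.1 CPM. Of the 4 cDC1-like clusters, 1 held 59.5 and 105 CPM, and the others 16.8 and 13.8, 15.0 and 29.6, and 8.07 and 10.8. The summed B cell markers went from 35.2 to 126 CPM in macrophage-like and from 13.8 to 51.2 CPM in cDC1-like cells, with 6 of 6 higher in both. CD8+ T markers went from 47.0 to 82.4 CPM with 6 of 6 higher, and from 35.8 to 53.9 CPM with 5 of 6 higher, and no marker of either list was at 0. In macrophage-like cells, NK markers went from 22.9 to 33.1 CPM with 5 of 8 higher. ILC2 markers there went from 101 to 111.5 CPM, with 6 of 8 higher and Il5 at 0 in ABX. In cDC1-like cells, NK markers went from 12.8 to 16.4 and ILC2 markers from 33.2 to 41.6 CPM, each with 7 of 8 higher. Treg markers had 29.1 and 30.1 CPM in macrophage-like and 47.7 and 45.2 CPM in cDC1-like cells, with 3 of 7 higher in each. The part of these markers in the Il7r ratios was not tested. With classes made from RNA alone, the ratio in macrophage-like cells was 0.901, on the other side of 1, and without cells that had an NK marker UMI it was 1.36 in macrophage-like and 1.32 in cDC1-like cells.

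In B cell-like cells Il7r went from 90.3 to 45.5 CPM, a ratio of 0.504 (0.407 to 0.625), where 7.62% of genes were called lower. Cells with 5 or more Il7r UMIs held 75.5% in NW and 50.3% in ABX of the UMIs (8 and 11 cells), and the remaining cells had 23.5 and 23.0 CPM. Of the 3 B cell-like clusters, 2 were lower in ABX, with 89.0 and 41.98, and 191 and 72.4 CPM, and the other had 20.5 and 34.0 CPM on 10 and 44 UMIs. The summed level of 8 macrophage markers in this class went from 2213 to 1106 CPM, with 0 of 8 higher in ABX, and that of 7 Treg markers from 93.1 to 56.0 CPM, with 0 of 7 higher. NK markers went the other way, from 27.7 to 44.3 CPM, with 7 of 8 higher and Klra4 at 0 in NW. ILC2 markers went from 123 to 91.5 CPM, with 1 of 8 higher and Il5 at 0 in both libraries. CD8+ T markers had 79.3 and 76.3 CPM, with 2 of 6 higher and Gzmk at 0 in both. The part of these markers in the result was not tested. Il21r, a receptor that acts in antibody responses, went from 51.0 to 67.0 CPM in B cell-like cells, a ratio of 1.31 (1.03 to 1.68).

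The Il15ra calls rested on few molecules. CD4+ T-like cells had 21 and 33 UMIs, or 7.93 and 17.6 CPM, a ratio of 2.23 (1.25 to 4.05), where 3.94% of genes were called higher. ILC2-like cells had 63 and 48 UMIs, or 17.2 and 10.7 CPM, a ratio of 0.621 (0.418 to 0.919), where 6.84% of genes were called lower. The summed macrophage markers went from 1412 to 863 CPM in ILC2-like cells, with 0 of 8 higher in ABX. At 1000 UMIs a cell, 0.855% and 1.41% of CD4+ T-like and 2.04% and 1.14% of ILC2-like cells kept an Il15ra UMI, against 1.20% and 1.64% of plasma cell-like cells. The shares of CD4+ T-like cells in both libraries and of ILC2-like cells in ABX were below that background, so no difference in expression is read from them. In mature DC-like cells, where the gene was high, the ratio was 1.16 (0.911 to 1.46), and that of Il15 was 0.680 (0.433 to 1.04), both within counting error.

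Members were next compared inside a class by another readout. NK-like cells with a UMI of Eomes, a transcription factor of mature NK cells, had more Il2rb than the others, with 2090.4 against 1245 CPM in NW, a ratio of 1.68 (1.53 to 1.84), and 1967 against 1429 in ABX, a ratio of 1.38 (1.27 to 1.5). Their Il7r was lower, with 152 against 441 CPM in NW, a ratio of 0.345 (0.275 to 0.431), and 182 against 315 in ABX, a ratio of 0.577 (0.466 to 0.716). Cells with an Eomes UMI were 230 of 340 in NW and 261 of 409 in ABX, at median depths of 3349 and 3255 UMIs against 3020 and 3122. Il2rb and Il7r were thus opposed within this class in both libraries.

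Treg-like cells with a UMI of Il1rl1, the IL-33 receptor ST2, had more Il7r than the others, with 2313 against 1612 CPM in NW, a ratio of 1.43 (1.30 to 1.58), and 2125 against 1305 in ABX, a ratio of 1.63 (1.45 to 1.83). Their Il2rb was lower, with 417 against 713 CPM in NW, a ratio of 0.585 (0.499 to 0.689), and 478 against 716 in ABX, a ratio of 0.668 (0.539 to 0.823). Cells with an Il1rl1 UMI were 312 of 397 in NW and 84 of 193 in ABX, at median depths of 3441 and 2609.5 UMIs against 2879 and 2642. The fractions thus had the same order in both libraries while their sizes differed.

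The CD25 antibody is directed at the protein of Il2ra, the IL-2 receptor alpha chain. Its signal did not follow Il2ra over all classes, since endothelial-like cells had the highest median, in UMIs per cell, of 89 in NW and 73 in ABX, at 22.7 and 26.3 CPM of Il2ra. Treg-like cells above the class median of this antibody had more Il7r than the cells below it, with ratios of 1.29 (1.20 to 1.38) in NW and 1.41 (1.25 to 1.58) in ABX. For Il2rb the ratio was 0.714 (0.615 to 0.828) in NW and 1.31 (1.08 to 1.59) in ABX, on opposite sides of 1. In ILC2-like cells the ratios of Il7r were 1.43 (1.37 to 1.5) and 1.18 (1.14 to 1.22), and those of Il2rg 1.38 (1.29 to 1.49) and 1.23 (1.16 to 1.32). CD62L is a homing receptor of naive and central memory T cells. CD8+ T-like cells above the median of its antibody had more Il7r, with ratios of 1.30 (1.11 to 1.52) and 1.64 (1.41 to 1.92), and in resting CD4+ T-like cells of ABX the ratio was 1.60 (1.38 to 1.86) for Il7r and 0.362 (0.205 to 0.611) for Il2rb. In CD4+ T-like cells the Il7r ratios were on the other side of 1, at 0.914 (0.862 to 0.970) and 0.849 (0.785 to 0.918).

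**Figure D5:**
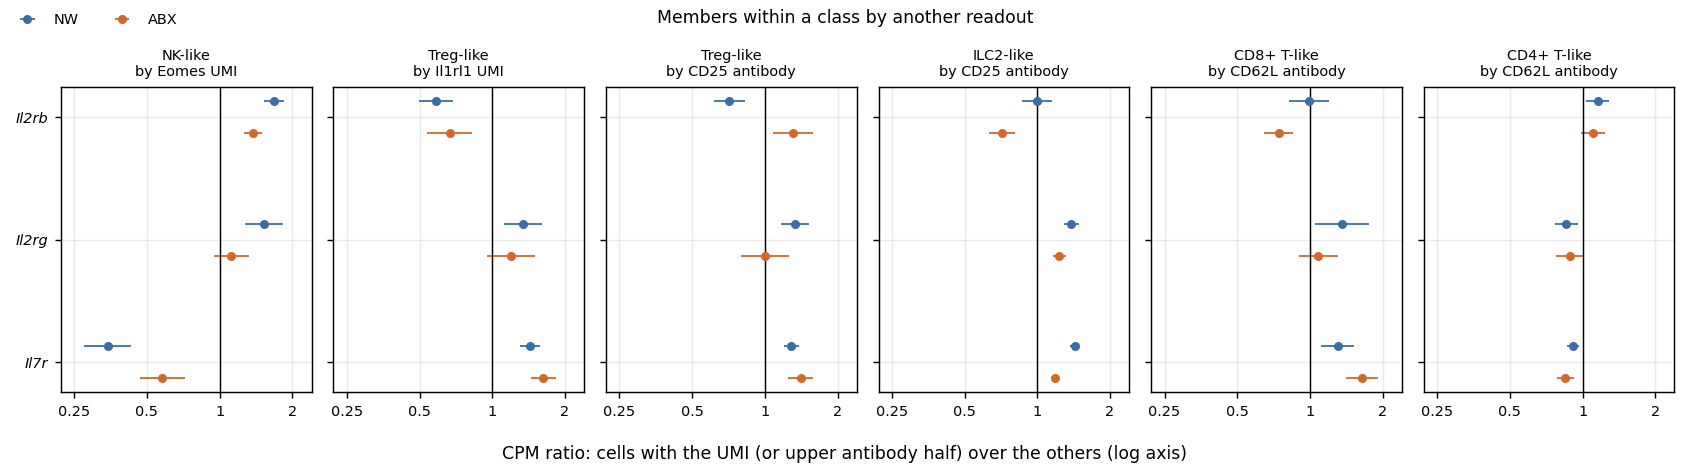
Ratio of CPM on a log axis between the cells of a class with the named readout (a UMI of Eomes or Il1rl1, or antibody above the class median) and its other cells, for Il2rb, Il2rg and Il7r in NW (blue) and ABX (orange), with 95% counting intervals. In NK-like cells split by Eomes, Il2rb lies above 1 and Il7r below it in both libraries, and in Treg-like cells split by Il1rl1 the order is the opposite.

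Macrophage-like cells fell into 16 clusters, and some members varied more among these than between the libraries. Il15 was highest in a cluster of 33 NW and 23 ABX cells led by the interferon-induced genes Ifit3, Rsad2 and Ifit1, with 116 CPM (77.1 to 168) in NW and 105 (54.2 to 183) in ABX, from 28 and 12 UMIs. The median over clusters was 16.9 and 19.8 CPM, and the next highest cluster had 25.9 and 49.1. Il4ra and Il21r were both highest in a cluster of 164 NW and 185 ABX cells led by Ccl12, Cx3cr1, Il1b, Cxcl2 and Tnf, which include chemokines and inflammatory cytokines. It had 158 CPM (133 to 186) in NW and 133 (109.8 to 159) in ABX for Il4ra, against medians of 64.2 and 57.5. For Il21r it had 121 and 95.8 CPM, against medians of 22.9 and 16.6. The same clusters were highest in each library.

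Of 25 other genes listed for the pathway, 24 were in the files, and 243 of 384 pairs of gene and class had at least 50 UMIs. By the same limit 19 pairs were higher and 16 lower in ABX, beside 5.5% and 5.3% of the pairs of all genes. The median log2 ratio was 0.01. Among receptor chains, Il2ra was lower in ABX in Treg-like cells, from 1131 to 432 CPM (0.382, 0.337 to 0.432) and in CD4+ T-like cells, with values of 440.0 and 263 (0.598, 0.537 to 0.665) and in B cell-like cells (0.608). The CD25 antibody had a median, in UMIs per Treg-like cell, of 24 in NW and 9 in ABX. In ILC2-like cells, where Il2ra was 1109 and 1411 CPM, the antibody median was 33 in NW and 39 in ABX. These are raw UMIs, the ABX library had 0.705 times the antibody UMIs of NW, and the median was lower in ABX in 15 of 16 classes. Low levels of Il2ra were higher in ABX in monocyte-like (16.4 and 31.8 CPM), cDC2-like (17.9 and 32.1) and cDC1-like cells (7.59 and 11.8). Il13ra1, a chain of the IL-13 receptor, was lower in ABX in ILC2-like cells, from 15.0 to 4.22 CPM (55 and 19 UMIs), and Il9r, the IL-9 receptor chain, was higher in macrophage-like cells, from 1.62 to 3.65. Crlf2, the TSLP receptor chain, had 30.4 and 18.7 CPM in mature DC-like cells, with a ratio interval that included 1.

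Among feedback inhibitors, Socs2 was higher in ABX in 7 classes, including NK-like cells from 236 to 482 CPM (2.04, 1.79 to 2.34), CD8+ T-like cells from 246 to 469 (1.91, 1.58 to 2.31) and ILC2-like cells from 275 to 437 (1.59, 1.47 to 1.71). The other classes were monocyte-like (3.56), macrophage-like (2.02), plasma cell-like (1.73) and endothelial-like cells (1.70). Socs1, the gene most like Il7r in pattern, was higher in ILC2-like cells, from 91.5 to 146 CPM (1.59, 1.39 to 1.82) and in macrophage-like cells, from 3.42 to 7.20. Cish, which STAT5 induces, was lower in Treg-like cells, from 195 to 101 CPM (0.519, 0.394 to 0.675), and had 5.93 and 3.73 in cDC1-like cells. Socs3 was lower in CD8+ T-like (0.385), monocyte-like (0.512), cDC1-like (0.615) and neutrophil-like cells (0.566), and had 24.3 and 40.4 CPM in Treg-like cells.

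Among targets, kinases and cytokines, Bcl2, which protects lymphocytes from apoptosis, was higher in ABX in Treg-like cells, from 88.1 to 199 CPM (2.26, 1.77 to 2.88) and in CD4+ T-like cells, with values of 179 and 282 (1.58, 1.39 to 1.79) and in monocyte-like cells (1.74). Bcl2l1, of the same family, was higher in mature DC-like cells, from 18.9 to 56.2 CPM on 28 and 30 UMIs. In neutrophil-like cells Pim1 was lower (0.584) and Jak1 higher (1.63), and in γδ T-like cells Jak3 was lower, from 55.0 to 28.8 CPM on 48 and 23 UMIs. Stat5a and the cytokine gene Tslp each had 20.3 and 12.9 CPM in monocyte-like cells, from 52 and 15 UMIs, with ratio intervals that included 1. Il13, a cytokine of ILC2, was lower in ILC2-like cells, from 80 to 7 UMIs, or 21.8 to 1.56 CPM (0.0714, 0.0278 to 0.154). Il21 was not detected in CD4+ T-like cells of NW, where a count of 0 allows up to 1.13 CPM (3 counts), and had 18 UMIs in 10 cells of ABX, too few for the limit of 50 UMIs.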

How the data were processed

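VAT CD45+ cells of 1 NW and 1 ABX library were measured. The authors processed reads with the BD Rhapsody whole transcriptome pipeline and deposited counts of UMIs per gene, antibody and cell barcode, with error correction of UMIs and not normalized. The submitters' processing notes name R 3.6.0, Seurat 3.0.1 and mm10. Of 17662 NW and 17785 ABX barcodes, those with at least 500 UMIs, 200 genes and at most 25% mitochondrial UMIs were kept, with 75214427 and 60770758 UMIs in all. A deeper library gives higher shares of cells with a UMI, so shares were also taken at 1000 UMIs a cell, among cells with at least that many. In R 4.3.3 with Seurat 5.3.0, 2000 variable genes, from which 7 members or pathway genes had been left out, gave 30 principal components. Separate components came from 7 antibodies. Both sets were joined in a weighted neighbour graph, clustered at resolution 0.6 and again within clusters at 0.3. Clusters of at least 30 cells were named from at least 3 markers with a fold of 1.5 and key genes. These naming limits were set after the clusters were seen. Scrublet (scanpy 1.11.5) marked 344 NW and 324 ABX doublets at the lower of both automatic thresholds, and doublets were kept. Values were computed in Python 3.11.15 with scipy 1.17.1. A ratio was called past 1.5-fold with at least 50 UMIs over both libraries in a class. The members and gene lists were chosen with earlier results of these data known. All members were named, with pathway genes past the limit and the 3 genes most like each member. On simulated counts, 2-fold changes were called for 96.0% of changed genes among 12142 genes of macrophage-like and 91.8% among 6508 of Treg-like cells, and 1.15% and 5.83% of unchanged genes were called. The simulated counts held Poisson counting error alone. They had no UMIs gathered in few cells and no differences between libraries, so these rates need not hold for the real counts. Alternatives covered clustering, filters on cells, doublets, scaling and limits.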

Additional observations from a re-analysis of the deposited data

Results flagged for a closer look

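Ratios of ABX to NW for Il15ra lay past 1.5-fold on opposite sides in different classes, at 2.23 in CD4+ T-like and 0.621 in ILC2-like cells. The Il15ra shares of CD4+ T-like cells in both libraries and of ILC2-like cells in ABX lay below background, as given above. For Il7r the ratios were 0.504 in B cell-like, 1.53 in macrophage-like and 1.51 in cDC1-like cells. Without cells that had 5 or more Il7r UMIs, the levels in NW and ABX were close. They were 23.5 and 23.0, 15.8 and 16.6, and 14.7 and 14.1 CPM in these classes. With classes made from RNA alone, the macrophage-like ratio was 0.901. The difference between the classes was not tested, since each condition had 1 library.

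Barcodes that failed the filters on UMIs, genes or mitochondrial share entered no main comparison, only an alternative that took all barcodes of both libraries. Among the failed barcodes alone, 3 of 7 members had ratios whose counting intervals lay above 1, as did 10.5% of 8593 genes with at least 50 UMIs. Il2rb went from 19.4 to 39.4 CPM on 90 and 159 UMIs, a ratio of 2.03 (1.56 to 2.66), Il2rg from 43.1 to 61.8 CPM on 200 and 249 UMIs, a ratio of 1.43 (1.19 to 1.74) and Il15ra from 9.48 to 14.4 CPM on 44 and 58 UMIs, a ratio of 1.52 (1.01 to 2.3). These barcodes were 5188 in NW and 5061 in ABX.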

How the results depend on the processing

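No paired analysis was possible because each condition had 1 library. Of 143 values that answer a comparison, recomputed under the alternatives, 100 kept their direction and size by the criteria used, and of 268 values of single members 222 did so, 45 differed and 1 reversed, which was Il7r in macrophage-like cells, at 0.901 with classes made from RNA alone. Against 7 pairs of member and class higher and 2 lower in ABX, RNA alone gave 1 higher, a larger set of variable genes 12 higher, a minimum of 20 UMIs 12 higher and 4 lower of 103 pairs, a minimum of 200 UMIs 3 and 1 of 51, a 2-fold limit 4 and 0, and at most 10% mitochondrial UMIs 1 lower. Leaving cells with an NK marker UMI out of myeloid classes, an alternative chosen after seeing the data, gave 4 higher. For pathway genes, RNA alone gave 27 lower, cells kept only with markers of their own class and few others gave 11 higher and 5 lower, 200 UMIs 8 and 4, and the 2-fold limit 7 and 4. With the same marker rule on cells, which kept 6538 NW and 7106 ABX cells, 3 of 7 members were highest in the same class. The cause of these differences was not tested, except that a stricter limit or fewer cells leave fewer pairs.

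Over all cells, the log2 ratio of Il2rb was 0.71 without doublets, 0.60 with median-of-ratios scaling, 0.72 with at most 10% mitochondrial UMIs, 0.45 as a mean of CPM per cell and 0.33 at the class shares of NW. With median-of-ratios scaling, the mean per cell and NW shares, it was 0.25, 0.24 and 0.043 for Il2rg and 0.30, 0.24 and 0.12 for Il7r, and Il7r had 0.44 with the mitochondrial limit. Il4ra had -0.014 with median-of-ratios scaling, and Il15ra 0.26 and Il15 0.057 at NW shares. Thinned to 1000 UMIs, the shares in NW and ABX of cells with both chains were 33.03% and 33.7% for Il2rb and Il2rg in NKT/ILC1-like cells and 47.4% and 48.6% for Il7r and Il2rg in ILC2-like cells. In mature DC-like cells they were 1.82% and 1.37% for Il4ra and Il2rg, 2.70% and 2.24% for Il21r and Il2rg, and 1.51% and 0.509% for Il15 and Il15ra.

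Over the alternatives, the ratio ranged over 1.38 to 2.92 (past the limit in 15 of 16) for Il2rb in macrophage-like, 1.33 to 5.62 (past the limit in 12 of 13) in monocyte-like and 1.02 to 1.95 (past the limit in 8 of 11) in cDC2-like cells. For Il7r it ranged over 0.334 to 0.817 (past the limit in 13 of 16) in B cell-like, 0.901 to 1.60 (past the limit in 10 of 16) in macrophage-like and 1.02 to 3.01 (past the limit in 11 of 16) in cDC1-like cells. It ranged over 1.14 to 2.12 (past the limit in 13 of 14) for Il21r in Treg-like cells, with the lowest value when the members, pathway genes and CD25 antibody were used to cluster, and over 1.36 to 2.36 (past the limit in 7 of 9) and 0.529 to 0.774 (past the limit in 10 of 14) for Il15ra in CD4+ T-like and ILC2-like cells. Each condition was 1 library, so differences between mice, libraries and treatment cannot be told apart.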

Other observations

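Cells that stayed outside the named classes also carried the members. A cluster of 85 NW and 199 ABX cells led by Il18r1, Tcrg-C2 and Ret had 2577 and 2864 CPM of Il7r (NW and ABX), 742 and 665 of Il2rg and 389.8 and 426 of Il2rb, levels in the range of ILC2-like and γδ T-like cells for Il7r. A cluster of 81 NW and 133 ABX cells led by Klra7, Klra1 and Ly6c2 had 1549.5 and 1338 CPM of Il2rb and 2221 and 1386 of Il7r. A cluster of 74 NW and 103 ABX cells led by Klkb1, Klrb1c and Txk had 272 and 533 CPM of Il2rb and 589 and 759 of Il7r, and Il2rb is itself among its leading genes. A cluster of 51 NW and 20 ABX cells led by Vpreb3, Vpreb1 and Myb, genes of B cell precursors, had 759.8 and 1412 CPM of Il7r, far above the 90.3 and 45.5 of B cell-like cells.

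In the interferon-gene cluster of macrophage-like cells, which had the most Il15, Il15ra was also the highest of the 16 clusters, with 24.9 and 43.7 CPM, but from 6 and 5 UMIs, and the next highest cluster had 20.8 and 42.9. Il15 in ILC2-like cells had 23 and 9 UMIs, under the limit for a comparison, and was lower in ABX in all 4 clusters.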
